A study of Homo sapiens with 6 samples.

Results

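The histone genes were 76 of the 18244 genes named on 6 arrays of P493-6 cells, a human B-cell line whose c-Myc transgene is switched off by tetracycline. Members were the genes read by a probe set with 1 gene symbol, where that symbol or an older name was that of a histone, without pseudogenes. Of these, 62 were clustered genes (54 on chromosome 6, 7 on chromosome 1 and 1, H4C16, on chromosome 12), and the 14 others were counted as outside the clusters. By type the clustered genes were 6 H1, 15 H2A, 18 H2B, 11 H3 and 12 H4 genes. The split followed gene names and not positions. H3-4 was counted as clustered through its older name and H4C16 through its current name. H2AJ was counted as outside, although its promoter (chr12:14774155-14774404) lies close to that of H4C16 (chr12:14771132-14771381). A gene with several probe sets was represented by the one whose log2 values averaged highest over the 6 arrays. The comparison drawn was between clustered genes and those outside the clusters as c-Myc was released.

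Each group had 2 arrays, which the design text calls biological duplicates. All cells carried the same transgene in the same line, and groups differed in the hours since repression was lifted: 0 for low-Myc, 1 for mid-Myc and 24 for high-Myc. A growth field of the labels gives 0 for mid-Myc and a treatment field gives 1, and the second was used. The numbering of the samples sets the mid-Myc arrays apart from the low-Myc and high-Myc arrays. In comparisons with mid-Myc, any difference in handling between these sets cannot be told apart from the hours since release. Synthetic ERCC RNAs had been added in proportion to the number of cells, and the labelling used 100 ng of total RNA and a kit that primes at poly(A) tails.

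Histones wrap DNA into nucleosomes, with a core of H2A, H2B, H3 and H4 and a linker, H1. The clustered genes are transcribed mainly in S phase, when new DNA needs new nucleosomes, and their main mRNAs end in a stem-loop, bound by SLBP, in place of a poly(A) tail. Some of them also make a polyadenylated mRNA. The replacement variants, such as H2AZ1, H3-3B and MACROH2A1, lie elsewhere in the genome, are transcribed through the cell cycle and have ordinary polyadenylated mRNAs. Which of these mRNA forms gave the signal of a given clustered gene was not tested.

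The promoters of the 3 clustered genes with the largest fitted falls and of the 2 genes outside the clusters that rose are shown to compare their elements. They are the 250 bases before the transcription start in RefSeq (GRCh38.p14), written 5′ to 3′ on the gene's strand: H2BC21 at chr1:149886683-149886932 (minus strand), H2BC5 at chr6:26157871-26158120 (plus), H1-2 at chr6:26056471-26056720 (minus), H2AX at chr11:119095466-119095715 (minus) and H2AZ1 at chr4:99950276-99950525 (minus). Capitals mark TATAAA (1 form of the TATA box), CCAAT and ATTTGCAT (the octamer known from H2B promoters). They were found on either strand, so that CCAAT on the other strand reads ATTGG.
H2BC21: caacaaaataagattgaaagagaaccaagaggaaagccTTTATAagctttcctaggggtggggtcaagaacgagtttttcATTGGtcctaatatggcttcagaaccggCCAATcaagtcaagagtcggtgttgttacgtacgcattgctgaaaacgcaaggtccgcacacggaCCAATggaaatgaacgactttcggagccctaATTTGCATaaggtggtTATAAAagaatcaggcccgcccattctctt
H2BC5: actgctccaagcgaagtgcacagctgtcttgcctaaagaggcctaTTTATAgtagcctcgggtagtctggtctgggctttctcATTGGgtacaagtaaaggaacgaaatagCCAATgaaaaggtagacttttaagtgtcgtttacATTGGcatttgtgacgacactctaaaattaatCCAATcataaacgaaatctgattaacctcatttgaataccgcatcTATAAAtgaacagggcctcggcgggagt
H1-2: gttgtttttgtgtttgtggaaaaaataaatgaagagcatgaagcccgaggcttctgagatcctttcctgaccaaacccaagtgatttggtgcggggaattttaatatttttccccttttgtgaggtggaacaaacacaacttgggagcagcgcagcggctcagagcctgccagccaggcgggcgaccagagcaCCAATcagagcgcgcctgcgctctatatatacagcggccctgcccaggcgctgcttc
H2AX: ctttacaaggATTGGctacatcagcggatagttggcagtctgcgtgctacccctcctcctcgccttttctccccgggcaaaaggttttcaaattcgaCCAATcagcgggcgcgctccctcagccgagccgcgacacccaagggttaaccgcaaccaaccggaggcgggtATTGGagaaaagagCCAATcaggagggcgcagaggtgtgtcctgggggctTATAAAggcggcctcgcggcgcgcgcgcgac
H2AZ1: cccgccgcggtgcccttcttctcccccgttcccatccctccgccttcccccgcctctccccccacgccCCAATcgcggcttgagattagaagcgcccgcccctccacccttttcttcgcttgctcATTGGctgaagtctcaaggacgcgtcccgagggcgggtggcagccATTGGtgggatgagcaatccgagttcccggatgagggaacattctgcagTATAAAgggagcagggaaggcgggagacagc
H2BC21, H2BC5, H2AX and H2AZ1 each held a TATAAA close to the start, at -30, -28, -31 and -31 (the base before the start is -1). H1-2 held no exact TATAAA, with 1 CCAAT at -57. It does hold the letters tatatata nearer the start, which were not counted or marked. Of the 5, H2BC21 alone held the octamer, at -46.

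A promoter was found for 57 of the 62 clustered genes and 13 of the 14 others. The exact letters TATAAA were in 64.9% of the clustered promoters, 38.5% of the others and 11.1% of all 27305 promoters of the same length. CCAAT was in 87.7%, 76.9% and 33.0% in the same order. The octamer ATTTGCAT was in 45.6%, 7.69% and 1.66%, and within the clustered genes in 14 of 18 H2B promoters. CACGTG, the E-box letters that MYC is known to bind, was in none of the 57 or the 13 and in 6.49% of all promoters. These are letter matches in a fixed window on both strands, which may overlap each other, and the absence of a match says nothing about a factor. The octamer was in 10 of the 16 clustered genes that fell at 24 hours and in 26 of all 57. These counts hold the same match more than once. H2BC21 and H2AC20 share theirs in overlapping windows, as do H2BC8 and H2AC8, and H3C4 has the same window as H2AC7. Whether the shares differ was not tested.

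MYC, whose transgene was released, had deposited intensities of 10472 and 10279 at 0 hours, 10031 and 9941 at 1 hour and 11888 and 11979 at 24 hours. The mid-Myc level was not above the low-Myc level as deposited, so it does not check that label. In the deposited values the 27 ERCC probe sets of middle intensity were lower than at 0 hours by 1.32-fold after 1 hour and 2.59-fold after 24 hours. Differences are therefore given on both scales. The equal-median scale centres each array on its median human probe set, so it shows a gene relative to other genes. The per-cell scale subtracts a curve through the ERCC probe sets, so it shows a gene relative to RNA added by cell number. At 24 against 0 hours MYC differed by 0.34 (log2) on the equal-median scale. Per cell it differed by 0.96, about the median of all genes tested (0.98). Marker sums cover every marker read, also those below the intensity filter. Of 10 B cell markers 9 were read and 8 were above the filter. The sum over those read was 24716 to 24887 at 0 hours, 25744 to 26585 at 1 hour and 15978 to 16112 at 24 hours. Monocyte markers, 3 of 5 above the filter, summed to 1465 to 1483, 1524 to 1579 and 529 to 554, T and NK cell markers (6 of 8) to 367 to 377, 329.9 to 366 and 268 to 275, and plasma cell markers (5 of 5) to 1526 to 1556, 1948 to 1967 and 1849 to 1917. The part of these shifts in the results was not tested.

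The genes tested were the 12198 with a mean intensity over 33.8, which is where the dimmest 40% of human probe sets end. Of the histone genes 37 passed: 28 clustered (1 H1, 9 H2A, 8 H2B, 6 H3 and 4 H4) and 9 outside the clusters. Just inside were H2AC13 (34.5), H3C12 (35.3) and H2AC15 (35.9), and just outside H4C7 (33.4), H2AC16 (31.4) and H1-8 (30.7). A gene was called at a limma adjusted p (Benjamini-Hochberg over all genes tested) below 0.05. The clustered genes resemble one another closely, and 15 of the 28 used a probe set whose name marks sequence shared with other transcripts, as did 21 of all 37. Their signal may be split among neighbours, so single clustered genes are uncertain in that respect. The same transcript may also reach several members, so counts of clustered genes called may not be counts of separate transcripts.

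At 24 hours against 0 hours, relative to other genes, 16 of the 28 clustered genes fell, 2 rose and 10 were not called. Among the falls were 4.66-fold in H2BC5 and 4.14-fold in H1-2, and the rises were 1.45-fold in H4C3 and 1.41-fold in H2BC15. Outside the clusters 2 genes rose, H2AZ1 by 2.42-fold and H2AX by 2.05-fold, 4 fell and 3 were not called. In all 24 of the 37 genes were called, 20 of them lower and 4 higher, against 63.7% of all genes tested, 26% lower and 37.7% higher. The share of clustered genes that fell, 16 of 28, thus stood above the 26% of all genes, while the 9 others are too few to set against it. Of these 16, H2AC15, H2AC7 and H3C10 were below the filter level in high-Myc arrays and passed through groups where they were brighter. Without the filter 19 of 62 clustered genes fell, against 17.7% of all genes. The median difference was -0.43 (log2) over the 28 clustered genes, -0.03 over the 9 others and 0.05 over all 12198. These medians depended on the filter: without it they were -0.17, -0.09 and 0.03, and with the filter at the 60th percentile -0.80, 0.05 and 0.13. In RNA from a whole culture, fewer cells that express a gene and less RNA per cell cannot be told apart.

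**Figure D1:**
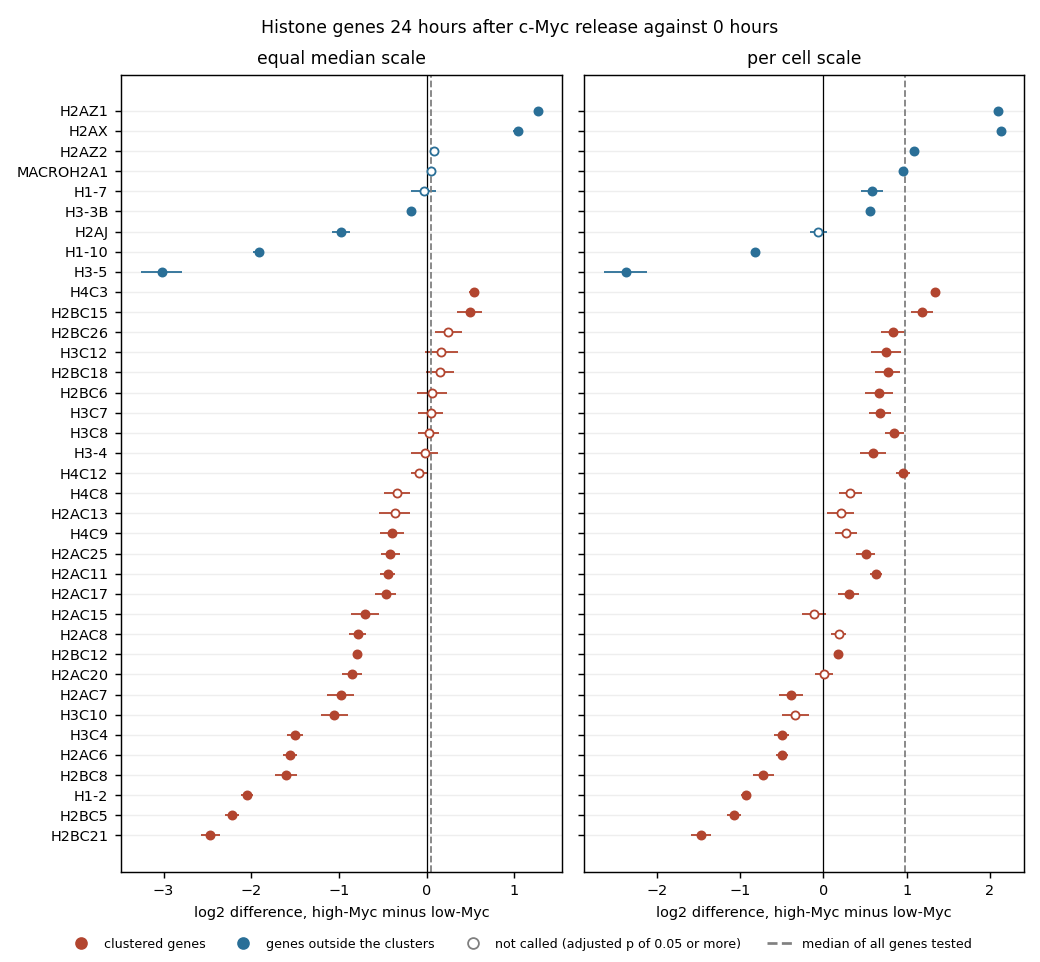
Log2 difference between high-Myc and low-Myc arrays (x axis) for each of the 37 histone genes above the filter (y axis), on the equal-median scale (left) and the per-cell scale (right). Points are limma estimates with their SE (n = 2 arrays per group), red for clustered genes and blue for genes outside the clusters, filled where called, and the dashed line is the median of all 12198 genes tested (0.05 and 0.98). H2BC21 (-2.47 and -1.47) and H3-5 (-3.02 and -2.38) lie farthest left in both panels, and H2AZ1 and H2AX farthest right.

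Of the 8 H2B genes 4 fell, 1 rose and 3 were not called. H2BC21, a chromosome 1 gene, was at 221 and 242 intensity on the low-Myc arrays, 147 and 159 on mid-Myc and 42.7 and 33.7 on high-Myc. H2BC5, in the main cluster on chromosome 6, was at 687 and 805, then 658 and 676, then 151 and 139. In both genes the high-Myc arrays lay far below the other 4, with no overlap. The differences at 24 hours were -2.47 (log2, SE 0.11, limma adjusted p = 1.87e-10) and -2.22 (SE 0.08, adjusted p = 2.08e-11) on the equal-median scale. The high-Myc level of H2BC21 lay near the filter level and among the background probe sets, so the size of its fall (5.54-fold as fitted) is not settled. The 3 probe sets of H2BC5 differed by -2.22, -1.77 and -1.89. H2BC21 had 2 other probe sets, with identical values and a mean intensity of 17.2, below the filter, which differed by 0.28, so that the mean over its probe sets was -0.64 (H2BC21, adjusted p = 0.000638).

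H2BC8 was at 130.3 and 115 at 0 hours, 77.9 and 80.3 at 1 hour and 41.8 and 32.1 at 24 hours, so its groups stepped down without overlap (-1.60, SE 0.13, adjusted p = 7.85e-08, at 24 hours). Its high-Myc arrays were also near the filter level, and the size of that fall is not settled. H2BC12, whose high-Myc level stayed above every background probe set, was at 2399 and 2315, then 2517 and 2468, then 1240.2 and 1224. Its mid-Myc arrays lay above and its high-Myc arrays below the low-Myc arrays, with a 24-hour difference of -0.80 (SE 0.04, adjusted p = 2.03e-09). H2BC15 went the other way, from 47.0 and 39.3 in low-Myc and 38.2 and 39.2 in mid-Myc to 54.6 and 55.1 in high-Myc arrays (0.49, SE 0.14, adjusted p = 0.00704). That call was lost without low-Myc replicate 2, where the value for H2BC15 was 0.35 (adjusted p = 0.0759). H2BC26 (0.25), H2BC18 (0.16) and H2BC6 (0.07) were not called.

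H1-2, the only clustered linker histone gene above the filter, was at 459 and 445 intensity at 0 hours, 456 and 466 at 1 hour and 102 and 96.0 at 24 hours. As deposited, its low-Myc and mid-Myc values overlapped and the high-Myc values lay far below both. On the equal-median scale its mid-Myc arrays (8.87 and 8.93 log2) lay slightly above its low-Myc arrays (8.75 and 8.70), without a call. The 24-hour difference was -2.05 (SE 0.07, adjusted p = 1.5e-11), a 4.14-fold fall.

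Of the 9 clustered H2A genes above the filter, 8 fell at 24 hours on the equal-median scale and H2AC13 was not called. H2AC6 fell by 1.55 (SE 0.08, adjusted p = 8.3e-10), from 247 and 229 intensity in low-Myc and 245 and 249 in mid-Myc to 76.9 and 70.4 in high-Myc arrays. As deposited, the low-Myc and mid-Myc arrays were alike and the high-Myc arrays lay apart. H2AC7 was at -0.98, H2AC20 at -0.85, H2AC8 at -0.79 and H2AC15 at -0.70, and H2AC17, H2AC11 and H2AC25 were at -0.47, -0.44 and -0.42. H2AC7 and H2AC15 were below the filter level in the high-Myc arrays, so the size of their falls is not settled.

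The H3 and H4 genes were more mixed. Among 6 clustered H3 genes, H3C4 and H3C10 fell and the 4 others, H3C12 (0.17), H3C7 (0.05), H3C8 (0.02) and H3-4 (-0.02), were not called. H3C4 went from 190.5 and 176 intensity through 147 and 128 to 58.8 and 58.5, each group below the one before it, with a 24-hour difference of -1.50 (SE 0.09, adjusted p = 4.35e-09). H3C10 was at -1.05, with its high-Myc arrays at 27.6 and 30.0, below the filter level.

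H4C3, an H4 gene of the main cluster, rose at 24 hours. It was at 4045 and 3664 at 0 hours, 3781 and 3754 at 1 hour and 5090.1 and 5047 at 24 hours, so only the high-Myc arrays stood apart (0.54, SE 0.05, adjusted p = 2.3e-07). Its other probe set was at 0.54 as well. H4C9 fell by 0.40, a call lost without low-Myc replicate 1 (H4C9 at -0.38, adjusted p = 0.0941), low-Myc replicate 2 (-0.42, adjusted p = 0.0658) or high-Myc replicate 1 (-0.30, adjusted p = 0.141). H4C8 (-0.33) and H4C12 (-0.09) were not called.

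**Figure D2:**
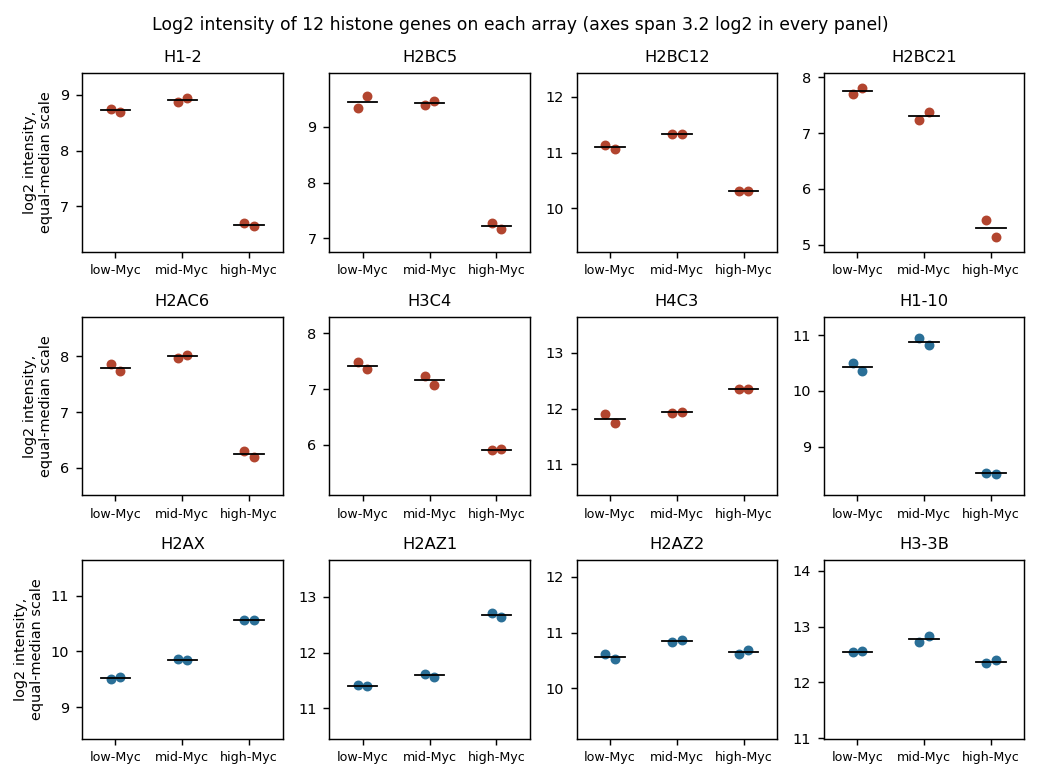
Log2 intensity on the equal-median scale (y axis) of 12 histone genes on each array of low-Myc, mid-Myc and high-Myc cells (x axis), with a line at each group's mean (n = 2). Every panel spans the same log2 range around its own level, with red for clustered genes and blue for genes outside the clusters. H1-2, H2BC5, H2AC6 and H1-10 drop between mid-Myc and high-Myc arrays, H2BC21 and H3C4 step down from group to group, and H2AX and H2AZ1 climb.

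Outside the clusters, H2AZ1 and H2AX rose and H1-10, H3-5 and H2AJ fell by the largest amounts. H2AZ1 encodes H2A.Z, a variant placed beside active promoters, and was at 2909 and 2885 intensity at 0 hours, 3057 and 2889.7 at 1 hour and 6583 and 6145 at 24 hours. The high-Myc arrays lay far above the 4 others, and the 24-hour difference was 1.27 (SE 0.04, adjusted p = 1.1e-11). The 3 other H2AZ1 probe sets were at 1.25, 1.45 and 1.39. H2AX, whose protein is phosphorylated around DNA breaks, was at 771 and 800.5, then 902 and 878, then 1478 and 1452. Its 3 groups stepped up without overlap, with a 24-hour difference of 1.04 (SE 0.05, adjusted p = 4.43e-10).

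H1-10, a linker histone outside the clusters, was at 1546 and 1412 at 0 hours, 1917 and 1717 at 1 hour and 359 and 353 at 24 hours. It thus lay higher at 1 hour and lowest at 24 hours, with a 24-hour difference of -1.91 (SE 0.06, adjusted p = 1.21e-11), a 3.77-fold fall. The second probe set of H1-10, with a mean intensity of 53.1, differed by -0.19, and the mean over both was -1.05 (H1-10, adjusted p = 6.22e-08). H3-5, a retrocopy of H3-3B, was at 90.2 and 89.3, then 64.7 and 86.2, then 7.51 and 13.4, and the last pair lay below the filter level, so the size of its fall (-3.02, SE 0.23, adjusted p = 5.3e-08) is not settled. H2AJ, an H2A variant, went from 104 and 108 through 87.3 and 97.6 to 49.1 and 48.9 (-0.97, SE 0.10, adjusted p = 1.26e-06). As deposited, the H2AJ groups stepped down without overlap. On the equal-median scale only its high-Myc arrays lay apart from the rest.

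The 4 remaining genes outside the clusters were H3-3B, H2AZ2, MACROH2A1 and H1-7, and of these only H3-3B was called. H3-3B, which encodes H3.3, was at 6359 and 6490.1 intensity at 0 hours, 6615 and 6947 at 1 hour and 5103 and 5197 at 24 hours. It was highest at 1 hour and lowest at 24 hours, with a small 24-hour difference of -0.18 (SE 0.04, adjusted p = 0.0013), a call lost without the variance trend. The 3 other H3-3B probe sets were at -0.41, -0.09 and -1.25, so they shared the sign and not the size. H2AZ2, another H2A.Z gene, had its low-Myc arrays at 1669.8 and 1580.0 and its high-Myc arrays at 1542 and 1589.6 and was not called (0.09, SE 0.05, adjusted p = 0.156). MACROH2A1, a variant with a large extra domain known from silent chromatin, had low-Myc arrays at 2631 and 2790.3 and high-Myc arrays at 2537 and 2572 (0.05, SE 0.04, adjusted p = 0.305). With quantile normalization H2AZ2 was at -0.17 and MACROH2A1 at -0.22, and centred on the tested genes they were at -0.12 and -0.15, so the direction of both depended on the scaling. H1-7 (-0.03) was not called.

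Per cell, the same arrays gave another split. Of the 28 clustered genes 14 rose, 7 fell and 7 were not called at 24 hours, and of the 9 others 6 rose, 2 fell and 1, H2AJ (-0.06), was not called. Among all genes tested 93.5% were called on this scale, 91% higher and 2.48% lower. With one factor per array in place of the ERCC curve, 20 clustered genes rose and 6 fell. The median difference was 0.29 over the clustered genes, 0.58 over the 9 others and 0.98 over all genes. With one factor per array the medians were 0.79, 1.18 and 1.27, and with the filter at the 60th percentile 0.17, 0.95 and 1.17. The share of clustered genes that fell, 7 of 28, thus stood above the 2.48% of all genes, and the share that rose, 14 of 28, below the 91%. Of these falls, H2AC7 was below the filter level in high-Myc arrays and passed through the other groups.

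In all 9 genes fell on both scales. On the per-cell scale H2BC21 was at -1.47 (SE 0.12, limma adjusted p = 9.09e-07), H2BC5 at -1.08, H1-2 at -0.93, H2BC8 at -0.72, H2AC6 at -0.50, H3C4 at -0.50 and H2AC7 at -0.39, and outside the clusters H3-5 was at -2.38 and H1-10 at -0.82. The call of H2AC7 was lost without high-Myc replicate 1 (H2AC7 at -0.27, adjusted p = 0.154), and with one factor per array H2AC7 turned to 0.23. With the mean of all probe sets of a gene the calls of H2BC21 (-0.14) and H1-10 (-0.12) were also lost. Their other probe sets differed by 0.52 (H2BC21) and 0.58 (H1-10) per cell.

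The 4 genes that rose on both scales were H2AX (2.13 per cell, SE 0.04, adjusted p = 6.22e-11), H2AZ1 (2.10, SE 0.04, adjusted p = 4.56e-11), H4C3 (1.34, SE 0.04, adjusted p = 9.18e-10) and H2BC15 (1.18, SE 0.13, adjusted p = 1.09e-05). Of the 20 genes that rose per cell, 5 were lower on the equal-median scale and 11 were not called there. H2BC12 rose per cell by 0.17 and H3-3B by 0.56, while both fell relative to other genes. H2AZ2 (1.09) and MACROH2A1 (0.95) rose per cell by about the median of all genes. The antigenomic background probe sets, which match no human transcript, also lay higher per cell: the 7 above the filter by 0.73 to 1.57, against 0.09 to 0.44 on the equal-median scale. The rises of H2AX and H2AZ1 exceeded that range, and those of the 14 clustered genes, from 0.17 to 1.34, did not exceed its top. The background shift grew with intensity, from 0.73 at 39.6 to 1.57 at 694, so its top is no measure for a dim gene. H2BC15, with a mean intensity of 45.0, rose by 1.18, against 0.80 for the background probe set at 44.7. H4C3, H2AX and H2AZ1 were brighter than every background probe set. H2AC11, with a mean intensity of 186, went from 7.22 and 7.22 on the low-Myc arrays to 7.85 and 7.86 on the high-Myc arrays (log2, per cell). The background probe set at 194 rose by more, 1.29. H2AC25, at 81.9, went from 6.11 and 6.24 to 6.59 and 6.79, and the background probe set at 70.1 rose by more, 0.97. The remaining clustered genes were not compared at like intensity.

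Other probe sets above the filter existed for 14 of the 37 genes. At 24 against 0 hours the other probe sets matched the direction of the one used in 14 of 14 genes on the equal-median scale and in 11 of 14 per cell, where H1-10, H3-3B and H3C10 differed.

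After 1 hour, changes were smaller. Relative to other genes 6 histone genes rose and 4 fell, against 25.7% higher and 3.39% lower, or 29.1% in either direction, among all genes tested. The risers were H1-10 (0.45, SE 0.06, limma adjusted p = 0.000199), H2AX (0.33), H2AZ2 (0.29), H3-3B (0.23) and H2AZ1 (0.19), all outside the clusters, and the clustered H2BC12 (0.23). With quantile normalization H2AZ1 (-0.042) and H2BC12 (-0.0069) turned, and with cyclic loess H2AZ1 (-0.033) and H3-3B (-0.0069), so the direction of these 3 depended on the scaling. With the mean of all probe sets H2BC12 was at -0.40 and H2BC21 at 0.10. The genes that fell were the clustered H2AC15 (-0.72, SE 0.16), H2BC8 (-0.48), H2BC21 (-0.45) and H3C4 (-0.26). H2AC15 was at 57.6 and 49.3 in low-Myc and 31.4 and 27.2 in mid-Myc arrays, the latter below the filter level, and at 30.1 and 29.4 in high-Myc arrays.

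These 1-hour calls were less settled than those at 24 hours. Quantile normalization gave 1 gene higher and 5 lower, against 2 and 4 with cyclic loess, 4 and 5 centred on the tested genes and 3 and 6 in the values as deposited. Of the 4 clustered falls 1 was called without low-Myc replicate 1, 2 without low-Myc replicate 2, 2 without mid-Myc replicate 1 and 3 without mid-Myc replicate 2. The H1-10 rise alone among the 10 calls was kept under every alternative.

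Per cell, 13 histone genes rose and 1 fell at 1 hour, against 62.7% and 0.672% of all genes tested, or 63.4% in either direction. The risers were 7 clustered genes, with H2AC13 and H2AC6 (0.44 each), H1-2 (0.42) and H2BC12 (0.39) at the head, and 6 genes outside the clusters, with H1-10 (0.65), H2AX (0.54) and H2AZ2 (0.46) at the head. With the mean of all probe sets H2BC12 turned to a called fall (-0.26, limma adjusted p = 0.0183). Of the clustered risers 4 were called without mid-Myc replicate 2. H2AC15 fell (-0.57), a call lost without low-Myc replicate 1. The 7 background probe sets above the filter differed by 0.19 to 0.46 per cell, a range that H1-10 and H2AX exceeded and whose upper end H2AZ2 (0.46) matched.

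**Figure D3:**
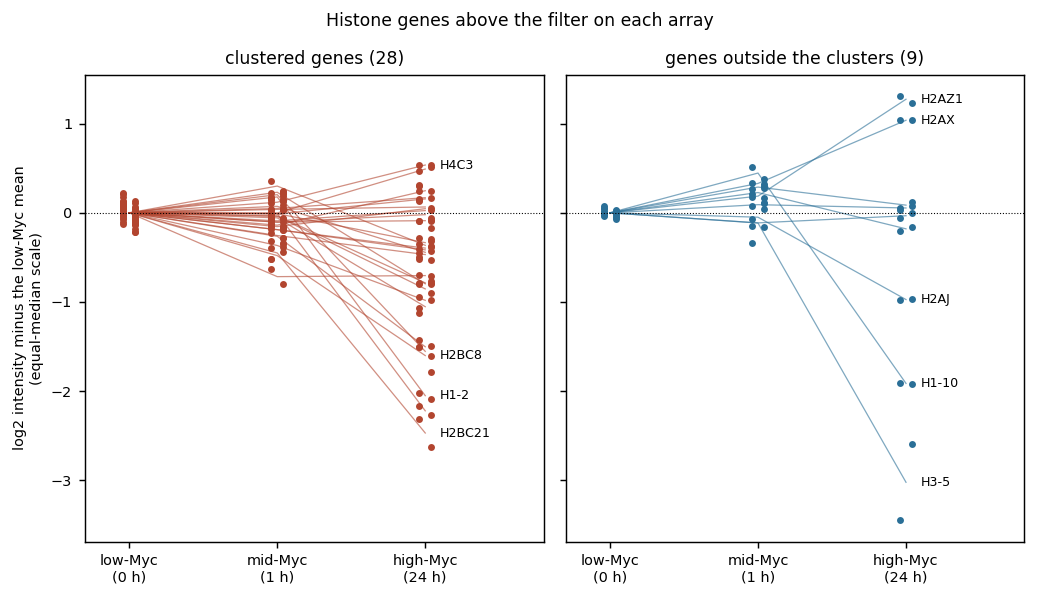
Log2 intensity on the equal-median scale minus the low-Myc mean of the same gene (y axis) on each array of low-Myc, mid-Myc and high-Myc cells (x axis, hours since release), for the 28 clustered genes (left) and 9 others (right) above the filter. Points are arrays and lines join group means (n = 2). Most of the spread between genes appears at 24 hours, from H3-5 (-3.02) and H2BC21 (-2.47) to H2AZ1 (1.27).

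Between 1 and 24 hours the equal-median scale gave 5 histone genes higher and 18 lower, against 33.3% and 30.9% of all genes tested, or 64.2% in either direction. The clustered genes were 3 higher (H2BC15 at 0.49, H4C3 at 0.42 and H2BC26 at 0.39) and 13 lower. The H2BC26 call was lost when any of the 4 arrays was left out (H2BC26 at 0.33 to 0.44, adjusted p = 0.0647 to 0.156). The largest fitted falls were in H3-5 (-2.91), H1-10 (-2.36), H1-2 (-2.23), H2BC5 (-2.21) and H2BC21 (-2.02, SE 0.11, limma adjusted p = 1.38e-09). The sizes for H3-5 and H2BC21 are not settled, as above, and with the mean of all probe sets H2BC21 was at -0.74 and H1-10 at -1.37. Outside the clusters H2AZ1 (1.09) and H2AX (0.71) rose, and H2AZ2 (-0.20) and H3-3B (-0.41) fell. The 0-hour and 1-hour arrays are each compared with the same 24-hour arrays, so these falls and those from 0 hours are not independent.

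On the per-cell scale 20 histone genes were higher and 10 lower between 1 and 24 hours, against 81.8% and 6.48% of all genes tested, or 88.3% in either direction. H1-10 (-1.47), H1-2 (-1.35), H2BC5 (-1.31), H2BC21 (-1.25) and H2AC6 (-0.93) were again lower, and H2AZ1 (1.80) and H2AX (1.60) higher. With the mean of all probe sets H2BC21 was at -0.36 and H1-10 at -0.63. Clustered genes accounted for 14 of the 20 rises and 8 of the 10 falls.

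The other 39 histone genes, 34 clustered and 5 outside the clusters, had mean intensities from 9.09 to 33.4, below the filter and within the range of the background probe sets (4.23 to 694, the second brightest at 194). They include H1-1, H1-3, H1-4, H1-5 and H1-6, and H3-3A, whose only probe set with 1 symbol was at 16.4 in low-Myc and 8.99 in high-Myc arrays on average. In a fit without the filter, 2 of all 62 clustered genes were higher and 19 lower at 24 hours on the equal-median scale, against 25.8% and 17.7% of all 18244 genes. Of the 14 others 2 were higher and 4 lower. The clustered genes added by this fit were H2BC4 (-1.13), H2BC17 (-0.63) and H2BC11 (-0.45). Per cell the fit gave 22 clustered genes higher and 8 lower, and 7 and 2 of the others, against 71.2% and 1.73% of all genes.

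Another 15 probe sets matched several symbols and are no members, and their values are given without a test. The 2 shared by H2AC18 and H2AC19, paired H2A genes on chromosome 1, went from 847 and 819 intensity in low-Myc to 196 and 158 in high-Myc arrays (-1.97 and -2.23 on the equal-median scale). A probe set shared by H4C11 and H4C12 went from 551 to 240.3 (-1.06), whereas the H4C12 probe set used above was at -0.09. The 3 shared by H3-3A and H3P6 differed by -0.12, -0.05 and -0.21 and one shared by H3-3B and H3-5 by -0.15, close to the H3-3B value.

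Of the 20 falls at 24 hours on the equal-median scale, 4 ended below the filter level in high-Myc arrays (H2AC15, H2AC7, H3-5 and H3C10). At the bright end 3 ended above 194, the second brightest background probe set: H1-10, H2BC12 and H3-3B. The other 13 ended between the filter level and 194, where background probe sets also lie.

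Many clustered genes are arranged head to head. In RefSeq 13 pairs of members had starts less than 1000 bases apart on opposite strands, so that they share the sequence between them. In 2 of these the partner is H2BC7, since H3C4 is annotated with the same start as H2AC7. H2BC21 and H2AC20 start 236 bases apart and both fell at 24 hours (-2.47 and -0.85, log2 on the equal-median scale), as did H2BC8 and H2AC8 (233 bases, -1.60 and -0.79). H2AC15 and H2BC15 start 194 bases apart and moved in opposite directions (-0.70 and 0.49). H2AC25 fell (-0.42) and its partner H2BC26, 230 bases away, was not called (0.25). In the 9 remaining pairs 1 or both genes were below the filter. Of the 4 pairs with both genes tested, 2 thus fell together, 1 moved apart and 1 had a single call.

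**Figure D4:**
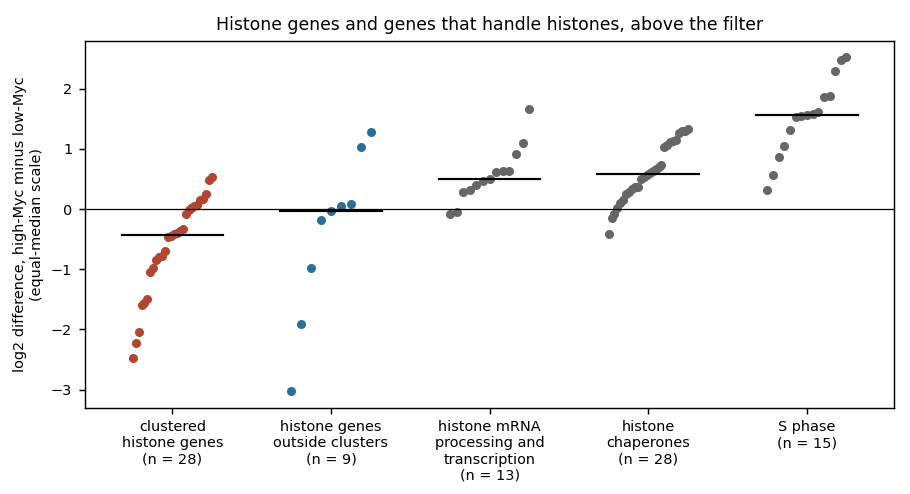
Log2 difference between high-Myc and low-Myc arrays on the equal-median scale (y axis) for clustered histone genes, histone genes outside the clusters and 3 lists of genes that handle histones or act in S phase (x axis, with the number above the filter). Points are genes, sorted within each group, and bars are medians, which run from -0.43 in the clustered genes to 1.56 in the S phase list.

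Genes that act on histones and their mRNAs were higher at 24 hours. Of 13 measured genes for the 3′ end of histone mRNA and for transcription of the clusters, 11 rose, none fell and 2 were not called on the equal-median scale (median 0.49), against 37.7% and 26% of all genes. SLBP, the stem-loop binding protein, rose by 1.66 (SE 0.08, limma adjusted p = 3.44e-10), ERI1, an exonuclease that trims the same stem-loop, by 1.10, the cleavage factor CSTF2 by 0.91 and the nuclease CPSF3 by 0.63. NPAT, the activator of cluster transcription, was at 0.63. LSM10 (-0.08) and CASP8AP2 (-0.05) were not called. At 1 hour SLBP was higher (0.41) and CASP8AP2 lower (-0.28).

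Of 28 histone chaperones and related genes, 22 rose, 1 fell and 5 were not called at 24 hours (median 0.58). SUPT16H and SSRP1, which form the chaperone FACT, rose by 1.34 and 1.30, the importin IPO4 by 1.30, and CHAF1B and CHAF1A, subunits of the CAF-1 complex that loads H3 and H4 on new DNA, by 1.27 and 1.12. ATRX, which with DAXX places H3.3, fell (-0.41), and DAXX (-0.09) and HIRA (0.11), of another H3.3 pathway, were not called. HJURP, the chaperone of the centromeric H3 variant, rose by 1.15 and that variant, CENPA, by 1.02. All 15 measured S phase genes rose (median 1.56), with CDC25A at 2.52, CDC6 at 2.48, CCNE2 at 2.30 and RRM1 at 1.89. Per cell all 13, 28 and 15 genes of these lists were higher, with medians of 1.63, 1.51 and 2.64, where 91% of all genes tested were higher and their median was 0.98.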

How the data were processed

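RNA from 6 cultures of P493-6 cells, 2 in each of 3 groups, had been hybridised to 1-colour Affymetrix arrays. The authors deposited linear intensities per probe set, made with MAS5 according to the submitters' processing notes, without a version or scaling target in the sources at hand. Dim values include background, and the number of arrays limits the precision.

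Intensities were taken as log2 of the deposited values. The equal-median scale subtracts from every array the median over human probe sets. The per-cell scale subtracts a robust loess fit to the ERCC probe sets, with a span of 0.7 and degree 1. The probe set used for a gene had to average above the 40th percentile of human probe sets. One limma 3.58.1 model (R 4.3.3, variance trend, two-sided, Benjamini-Hochberg over all genes tested, threshold 0.05) covered the 6 arrays and gave the SE values. Its p-values rest on 2 arrays per group and a spread borrowed across genes, with 12.9 (equal median) and 9.24 (per cell) degrees of freedom. With 2 arrays against 2 the smallest exact permutation p is 0.333. Data for 12198 genes were simulated on the equal-median scale, with normal noise set by intensity alone. In these, 100 genes changed by 0.5 log2 and 100 by 1. Of the changes of 0.5 log2, 91% were recovered at 24 against 0 hours, 94% at 1 against 0 and 92% at 24 against 1. False calls numbered 5, 6 and 17 in the same order. A far larger share of genes was called in the data, and spread may differ between genes of like intensity, so these shares may not hold there.

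The members, lists and alternatives were chosen with earlier results of these data known. The rule for named genes took every gene outside the clusters above the filter, the 10 brightest clustered genes, the 5 largest non-overlapping rises and falls per comparison among clustered genes, MYC and the 4 most changed genes per list. Other genes named were chosen for their role or after their values were seen. Promoters were matched through gene identifiers. Alternatives were the filter, adding 16 before the log, no variance trend, a replicate block, fits of 2 groups, all probe sets averaged, each array left out, and other scalings or ERCC curves.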

Additional observations from a re-analysis of the deposited data

How the results depend on the processing

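At 24 against 0 hours, 21 of 24 equal-median calls and 22 of 29 per-cell calls were kept under every alternative that tested the gene. The same held for 22 of 23 and 20 of 30 between 1 and 24 hours. A gene below the filter of an alternative was not tested there, and that alternative was left out of its count. Dim genes such as H2AC7 and H2AC15 (13 alternatives, against 15 for H1-10, equal median at 24 hours) thus met fewer alternatives. At 1 hour 1 of 10 and 9 of 14 were kept. Leaving out one array at a time gave 21 to 24 called genes at 24 hours (equal median) and 27 to 29 (per cell), 22 to 23 and 27 to 29 between 1 and 24 hours, and 8 to 9 and 11 to 13 at 1 hour. With the filter at the 60th percentile fewer genes were tested, and 15 (equal median) and 16 (per cell) were called at 24 hours and likewise between 1 and 24 hours. Of the clustered genes 9 fell (equal median) and 5 rose (per cell) at 24 hours under that filter. At 1 hour 6 were called with quantile normalization and 6 with cyclic loess, in place of 10. The clustered falls at 24 hours on the equal-median scale were 16 to 19 under the other scalings, and the clustered rises per cell were 17 with a span of 0.4 and 20 with one factor per array, in place of 14. Centred on the tested genes, the median of all genes at 24 hours moved from 0.05 to -0.15 and that of the clustered genes from -0.43 to -0.63; in the values as deposited they were -0.09 and -0.57.

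The replicate numbers do not pair the samples, whose deviations correlated at -0.0088 to 0.019 between groups, and with the replicate number as a block the counts stayed at 24 and 29 at 24 hours, 10 and 14 at 1 hour, and 23 and 30 between them.

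Some single values changed direction. With the mean of all probe sets H2BC12 was at -0.26 per cell and -0.40 (equal median) at 1 hour and at 0.31 per cell between 1 and 24 hours, H3-3B at -0.024 per cell and MACROH2A1 at 0.13 (equal median) between 1 and 24 hours, and H2BC21 at 0.10 at 1 hour. With one factor per array the 24-hour values per cell were 0.51 for H2AC15, 0.23 for H2AC7 and 0.24 for H2AJ, and from 1 hour 0.37 for H2AC7 and 0.23 for H2AC8. With quantile normalization H2AZ2 (-0.17) and MACROH2A1 (-0.22) turned at 24 hours, and H2AZ1 (-0.042), H2BC12 (-0.0069), MACROH2A1 (-0.14) and MYC (-0.15) at 1 hour. Centred on the tested genes H2AZ2 was at -0.12 and MACROH2A1 at -0.15 at 24 hours and MYC at -0.020 at 1 hour. With cyclic loess H2AZ1 (-0.033), H3-3B (-0.0069) and MYC (-0.16) turned at 1 hour, and as deposited MYC was at -0.055. The cause of these turns was not tested.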

Other observations

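Among all genes that are not histones, the 5 whose profile over the 6 arrays on the equal-median scale lay closest to the median profile of the clustered genes were ZNF451, ATP2C1, USP8, AGO3 and ZNF341, with root mean square distances of 0.033, 0.035, 0.037, 0.038 and 0.039 log2. This is a description of 6 arrays and no test.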
